A study of Mus musculus with 24 samples.

Results

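Polycomb complex genes were followed by symbol in RNA-seq of mouse embryonic stem cells (mESCs) that lack single accessory subunits of the ISWI chromatin remodelers. The group holds 10 of the 24594 genes of the count table: Ezh1, Ezh2, Eed and Suz12 (the core of Polycomb repressive complex PRC2), Jarid2, Mtf2 and Phf19 (accessory subunits of PRC2), Ring1 and Rnf2 (the catalytic core of PRC1), and Cbx7 (a subunit of canonical PRC1). The rule took them by name, with earlier results of these data known, and all 10 had enough reads to be tested. ISWI remodelers slide nucleosomes with a shared ATPase, and the accessory subunits distinguish the complexes.

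The 24 libraries fell into 5 batches, lettered here A to E as the labels separate them, each with its own WT libraries. Batch A held 2 libraries each of Rsf1Δ (RSF complex), WstfΔ (Wstf is also Baz1b, WICH complex) and WT. Batch B held 2 of Tip5Δ (Tip5 is also Baz2a, NoRC complex) and 2 of WT, batch C 2 of BptfΔ (NURF complex) and 2 of WT, batch D 3 labelled Cecr2Δ (CERF complex) and 3 of WT, and batch E 2 of Acf1Δ (Acf1 is also Baz1a, ACF and CHRAC complexes) and 2 of WT. All cells were of the 129S6/SvEvTac strain and were grown in serum with LIF on gelatin. Each deletion was made with CRISPR–Cas9 and is represented by 1 clone, so that an effect of the deletion and a property of the clone cannot be told apart. The study's methods call the replicates independent and biological but do not say whether those of a group were grown as separate cultures, and p-values measure the spread between these libraries only.

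Library totals ran from 13417755 counts in a WstfΔ library to 36721585 in one labelled Cecr2Δ. The mRNA of the targeted gene was lower than in WT in Rsf1Δ, WstfΔ, BptfΔ and Acf1Δ (log2 fold changes of −2.26, −2.40, −1.97 and −1.72 for Rsf1, Baz1b, Bptf and Baz1a). In Tip5Δ, Baz2a mRNA had a log2 fold change of −0.26 ± 0.09 (SE) and did not pass the test (adjusted p = 0.0533), and Cecr2 mRNA was higher in the libraries labelled Cecr2Δ (0.37 ± 0.07, adjusted p = 0.000154). RNA levels therefore do not check these 2 labels. The study's methods describe a check of the clones by western blot and DNA sequencing. A lower level was also not particular to the targeted line. Baz1a fell in BptfΔ (79.9 to 23.96 normalized CPM, reads scaled to the adjusted size of each library, −1.74 ± 0.07) as well as in Acf1Δ (62.4 to 18.9), and less in Rsf1Δ (−0.64), WstfΔ (−0.83) and the libraries labelled Cecr2Δ (−0.47), and Cecr2 fell in BptfΔ (121 to 41.1, −1.56 ± 0.09). The stem cell markers Pou5f1, Sox2, Nanog, Klf4, Esrrb and Zfp42 were detected in every group, and their summed level ran from 2527 to 4117 normalized CPM. WT of batch C held 116 genes at a level at least 8-fold above the other WT libraries, among them Rpph1, an RNA without a poly(A) tail. Leaving these genes out changed no call on a member. Replicates stood farthest apart in batches D and E: the chi-square of counts between a pair of libraries, about 1 per gene under sampling noise alone, was 8.72 to 21.2 in WT of batch D, 11.7 in WT of batch E and 19.7 in Acf1Δ, against 1.38 to 5.78 in the other groups.

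Polycomb group proteins keep developmental genes silent through histone modification. PRC2 places H3K27me3 through the catalytic subunit Ezh2 or its paralogue Ezh1, which need Eed and Suz12 for activity. Accessory subunits decide where PRC2 binds: Mtf2 and Phf19 are Polycomb-like proteins found in one form of the complex, and Jarid2 belongs to another. PRC1 ubiquitinates histone H2A through Ring1 or Rnf2, and chromobox proteins such as Cbx7, the main one of undifferentiated mESCs, read the PRC2 mark.

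The windows of 250 bases before the transcription start are shown for Suz12 and Ring1, members that rose together in BptfΔ. CG dinucleotides are in capitals, the sequence is from RefSeq on build GRCm38, and each window is written 5′ to 3′ on the strand of its gene and ends at the base before the annotated start.
Suz12, chr11:79992856-79993105, plus strand: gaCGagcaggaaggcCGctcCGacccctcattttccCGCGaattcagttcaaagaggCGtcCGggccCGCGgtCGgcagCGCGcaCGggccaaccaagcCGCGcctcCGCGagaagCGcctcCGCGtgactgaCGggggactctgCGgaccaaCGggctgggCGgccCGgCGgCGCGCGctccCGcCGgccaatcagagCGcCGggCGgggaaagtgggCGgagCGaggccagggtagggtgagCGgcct
Ring1, chr17:34024681-34024930, minus strand: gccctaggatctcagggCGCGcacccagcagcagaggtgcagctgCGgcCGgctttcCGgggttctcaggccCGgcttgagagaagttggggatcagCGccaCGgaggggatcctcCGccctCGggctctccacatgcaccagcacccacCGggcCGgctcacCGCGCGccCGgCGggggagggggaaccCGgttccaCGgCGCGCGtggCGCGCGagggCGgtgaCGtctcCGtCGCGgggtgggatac
Both windows were 73.6% G or C, with 37 CG in Suz12 and 30 in Ring1 against a median of 6 over the 32851 RefSeq promoters of that length. As many CG or more stood in 2.20% of all promoters for Suz12 and in 5.94% for Ring1. Over the windows of the other members, CG ran from 2 at the second of a pair of Mtf2 starts, through 12 in Eed, 14 in Ezh1 and 20 in Rnf2, which also rose in BptfΔ, to 31 in Phf19, which fell there and whose window overlaps other annotated transcripts of that gene. Cbx7, the other member that fell in BptfΔ, had 23. CG counts of members that rose and of members that fell in BptfΔ thus overlapped, and a link to the changes was not tested. The CCAAT box (CCAAT, both strands) occurred once in the Suz12 window and not in that of Ring1, and 33.8% of all promoters held it. The TATA box (TATAAA, 12.4% of promoters) and the E-box (CACGTG, 6.02%) occurred in neither, on either strand.

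In WT cells the members formed an abundant and a rare set. Per kilobase of exon, which allows genes to be compared, the order of mean levels over the 11 WT libraries was Eed, Mtf2, Jarid2, Rnf2, Suz12, Ezh2, Cbx7, Ezh1, Ring1 and Phf19. Eed, the subunit that binds the PRC2 mark, stood at 97.1 ± 15.6 (SD, n = 11) normalized CPM per kilobase, and Cbx7, lowest of the abundant set, at 33.3 ± 3.85. Ezh1 (3.95 ± 0.49), Ring1 (3.45 ± 0.35) and Phf19 (3.33 ± 0.39) lay lower, and none of them exceeded 4.60 in any WT library. The steps from Rnf2 to Suz12, from Suz12 to Ezh2 and from Cbx7 to Ezh1 held in all 11 WT libraries. Other neighbours did not keep their order: Eed exceeded Mtf2 in 7 of 11, Mtf2 exceeded Jarid2 in 9, Jarid2 exceeded Rnf2 in 7, Ezh2 exceeded Cbx7 in 5, Ezh1 exceeded Ring1 in 8 and Ring1 exceeded Phf19 in 7. The plot of WT levels shows the gap between Cbx7 and Ezh1.

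**Figure D1:**
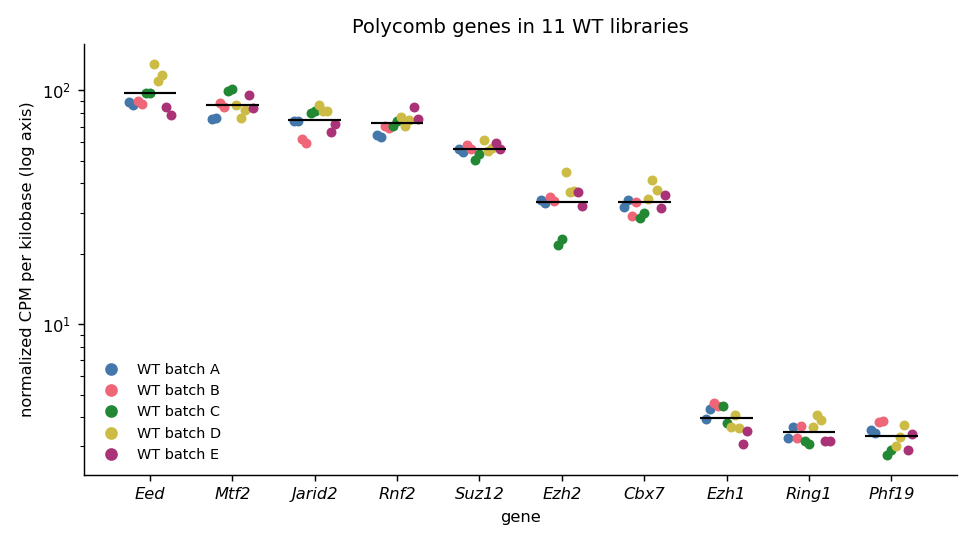
Level of each Polycomb gene in the 11 WT libraries, in normalized CPM per kilobase of exon on a log axis. Points are libraries, colored by batch, and lines are means. Ezh1, Ring1 and Phf19 lie below 5, and the other 7 members above 20.

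Each pair of paralogous catalytic genes had a dominant member. The log2 ratio of Ezh2 to Ezh1 per kilobase was 3.06 ± 0.40 (SD, n = 11) in WT, and ran from 2.29 to 3.62 between libraries. It was lowest in batch C (2.45 ± 0.23, n = 2), where WT held 150 normalized CPM of Ezh2 against 264 in batch D, a 1.76-fold difference and the widest between WT batches for any member. The log2 ratio of Rnf2 to Ring1 was 4.39 ± 0.21 (n = 11) in WT and ranged from 4.10 to 4.75. In Acf1Δ, where Ring1 rose and Rnf2 fell, this ratio was 3.81 ± 0.02 (n = 2) against 4.67 ± 0.12 (n = 2) in WT of batch E. That WT value was the highest of the WT batches. The ratio was also lower in BptfΔ (4.04 ± 0.11 against 4.54 ± 0.09) and Rsf1Δ (3.96 ± 0.07 against 4.22 ± 0.13). It was 4.21 against 4.22 in WstfΔ, 4.21 against 4.26 in the libraries labelled Cecr2Δ, and 4.48 against 4.33 in Tip5Δ.

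Against WT of the same batch, the 60 comparisons of 10 members in 6 lines gave 20 changes at an adjusted p under 0.01, 12 higher and 8 lower. Each p came from the quasi-likelihood test of edgeR and was adjusted by Benjamini-Hochberg over the 15682 genes tested. One change, of Phf19 in the libraries labelled Cecr2Δ, also exceeded a log2 fold change of 1 in size. Phf19 fell in 5 of 6 lines, Ring1 rose in 3, Cbx7 fell and Suz12 rose in BptfΔ, and Ezh2 passed the test in none. In bulk RNA, fewer cells that express a gene and less RNA per cell cannot be told apart.

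**Figure D2:**
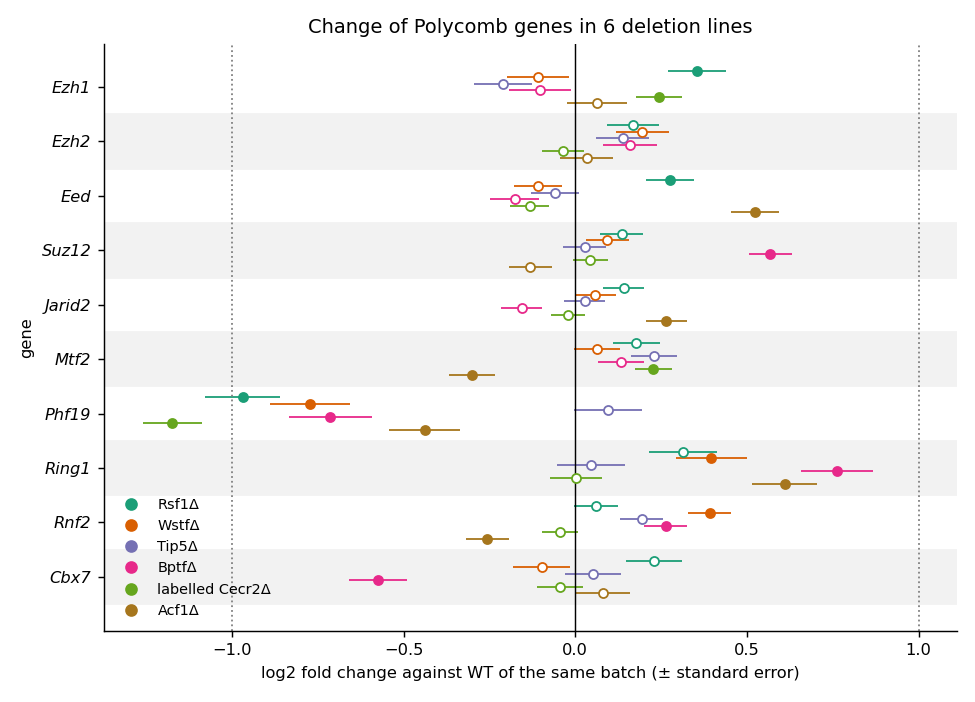
Log2 fold change of the 10 Polycomb genes in each line against WT of its batch (x axis), with standard errors as bars. Filled points passed an adjusted p of 0.01, open points did not, and dotted lines mark log2 fold changes of −1 and 1. Phf19 lies to the left in 5 lines and Ring1 to the right in 3.

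The count of members that passed must be read against the share of all genes that did. In Rsf1Δ, 2 of 10 members rose and 1 fell, while 7.45% of all genes rose and 13.1% fell. WstfΔ also had 2 higher and 1 lower (all genes: 16.4% and 18.3%). BptfΔ, the line with most changed genes, had 3 higher and 2 lower (21.4% and 20.2%). The libraries labelled Cecr2Δ had 2 higher and 1 lower (9.52% and 8.83%), and Acf1Δ had 3 of each (15.1% and 16.7%). In Tip5Δ none of the 10 passed (2.84% and 6.23% of all genes). There, 3 members had an unadjusted p under 0.05 (28.2% of all genes), DESeq2 called 1 (9.26%), a fit without the filter on low counts 1 (8.73%), and a fit on batch B alone 4 (24.6%). In Rsf1Δ, 9 members had an unadjusted p under 0.05 and 8 of them were higher, against 39.4% and 17.6% of all genes. Single libraries moved the counts of every line but Tip5Δ. In Rsf1Δ, 1 member passed without WT replicate 1 of batch A, and 2 without WT replicate 2 or either Rsf1Δ library. In WstfΔ, 2 passed without WT replicate 1 or WstfΔ replicate 1. In BptfΔ, the call on Rnf2 was lost without WT replicate 1 or BptfΔ replicate 1. Without replicate 2 or 3 of the line, 1 passed in the libraries labelled Cecr2Δ. Without WT replicate 1 or Acf1Δ replicate 2 of batch E, 3 passed in Acf1Δ. The stricter rule, which adds the fold threshold, was met by no member other than Phf19 and by 5.91% of all genes in Rsf1Δ, 10.4% in WstfΔ, 2.72% in Tip5Δ, 13.8% in BptfΔ, 4.45% in Acf1Δ and 3.11% in the libraries labelled Cecr2Δ. The median log2 fold change of the members lay between −0.03 (labelled Cecr2Δ) and 0.17 (Rsf1Δ), and that of all genes between −0.03 and 0.01.

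Phf19, the Polycomb-like subunit whose Tudor domain binds methylated H3K36, moved most. In batch A, its normalized CPM was 17.8 and 17.3 in WT, 8.20 and 9.73 in Rsf1Δ, and 10.4 and 10.2 in WstfΔ. Both lines lay clear of their shared WT libraries, with log2 fold changes of −0.97 ± 0.11 (SE, adjusted p = 8.19e-08) and −0.77 ± 0.12 (4.96e-06). In batch C, WT held 13.9 and 14.6 and BptfΔ 8.20 and 9.13 (−0.71 ± 0.12, adjusted p = 1.91e-05). In batch D, WT held 15.1, 16.6 and 18.7, and the libraries labelled Cecr2Δ 7.07, 7.65 and 7.59 (−1.17 ± 0.09, adjusted p = 3.86e-11). All 3 of those libraries fell below the lowest WT library of any batch, which was 13.9.

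Acf1Δ showed a smaller decrease of Phf19 and Tip5Δ none that passed. In batch E, Phf19 stood at 14.6 and 17.1 in WT and at 11.9 and 11.6 in Acf1Δ (−0.44 ± 0.10, adjusted p = 0.00128). That call was lost without WT replicate 2 (−0.32, adjusted p = 0.0364), without Acf1Δ replicate 2 (−0.42, 0.0137) and in a fit on batch E alone (−0.42, 0.033). In batch B, WT held 19.3 and 19.4, and Tip5Δ 20.7 and 20.6, the highest Phf19 of the series (0.09 ± 0.10, adjusted p = 0.584). Whether Tip5Δ differs from the other lines was not tested. Phf19 was measured on 137 to 566 reads a library.

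Markers of primitive endoderm, the extraembryonic lineage that mESC cultures can hold, were low in every line except Acf1Δ. Of 9 such markers (Gata6, Gata4, Sox17, Sox7, Pdgfra, Dab2, Cubn, Col4a1 and Lama1), 9 fell in Rsf1Δ, Tip5Δ, BptfΔ and the libraries labelled Cecr2Δ, and 8 in WstfΔ. Their summed level was 3336 to 3911 normalized CPM in WT of batch A, 1018 to 1079 in Rsf1Δ and 908 to 939 in WstfΔ. In Tip5Δ it was 621 to 655 against 3640 to 3709 in WT, although Phf19 did not pass the test there. In Acf1Δ, where Phf19 fell, it was 2013 to 2713 against 1954 to 2381, and 3 markers rose and 1 fell. The sum was 281 to 286 in BptfΔ against 2015 to 2134, and 171 to 187 in the libraries labelled Cecr2Δ against 866 to 938 in WT. Its part in the level of Phf19 or of any other member was not tested.

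Other cell types gave smaller sums. That of trophoblast markers was 431 to 437 normalized CPM in WT of batch A, 100 to 101 in Rsf1Δ and 71.9 to 74.9 in WstfΔ. It was also lower than WT of the same batch in the other lines. Trophoblast markers (Cdx2, Tfap2c, Krt8 and Krt18 tested, Elf5 too low) fell for 3 of 4 in Rsf1Δ, WstfΔ and Acf1Δ, for 2 in Tip5Δ and for 4 in BptfΔ, and 2 fell and 1 rose in the libraries labelled Cecr2Δ. Fibroblast markers summed to at most 32.2 normalized CPM and markers of 2-cell-like cells to at most 4.72 in any group. Of 4 fibroblast markers tested, 3 fell in Rsf1Δ, Tip5Δ, BptfΔ and Acf1Δ, 3 fell and 1 rose in WstfΔ, and none passed in the libraries labelled Cecr2Δ. Of 3 tested 2-cell markers, 1 rose in Rsf1Δ, 1 fell in Tip5Δ, 2 fell in BptfΔ, 3 fell in Acf1Δ, 2 rose in the libraries labelled Cecr2Δ, and none passed in WstfΔ. Of the 6 stem cell markers named above, 6 rose in Rsf1Δ and WstfΔ, 5 in BptfΔ, 4 in the libraries labelled Cecr2Δ and none in Tip5Δ, whereas 2 rose and 2 fell in Acf1Δ.

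**Figure D3:**
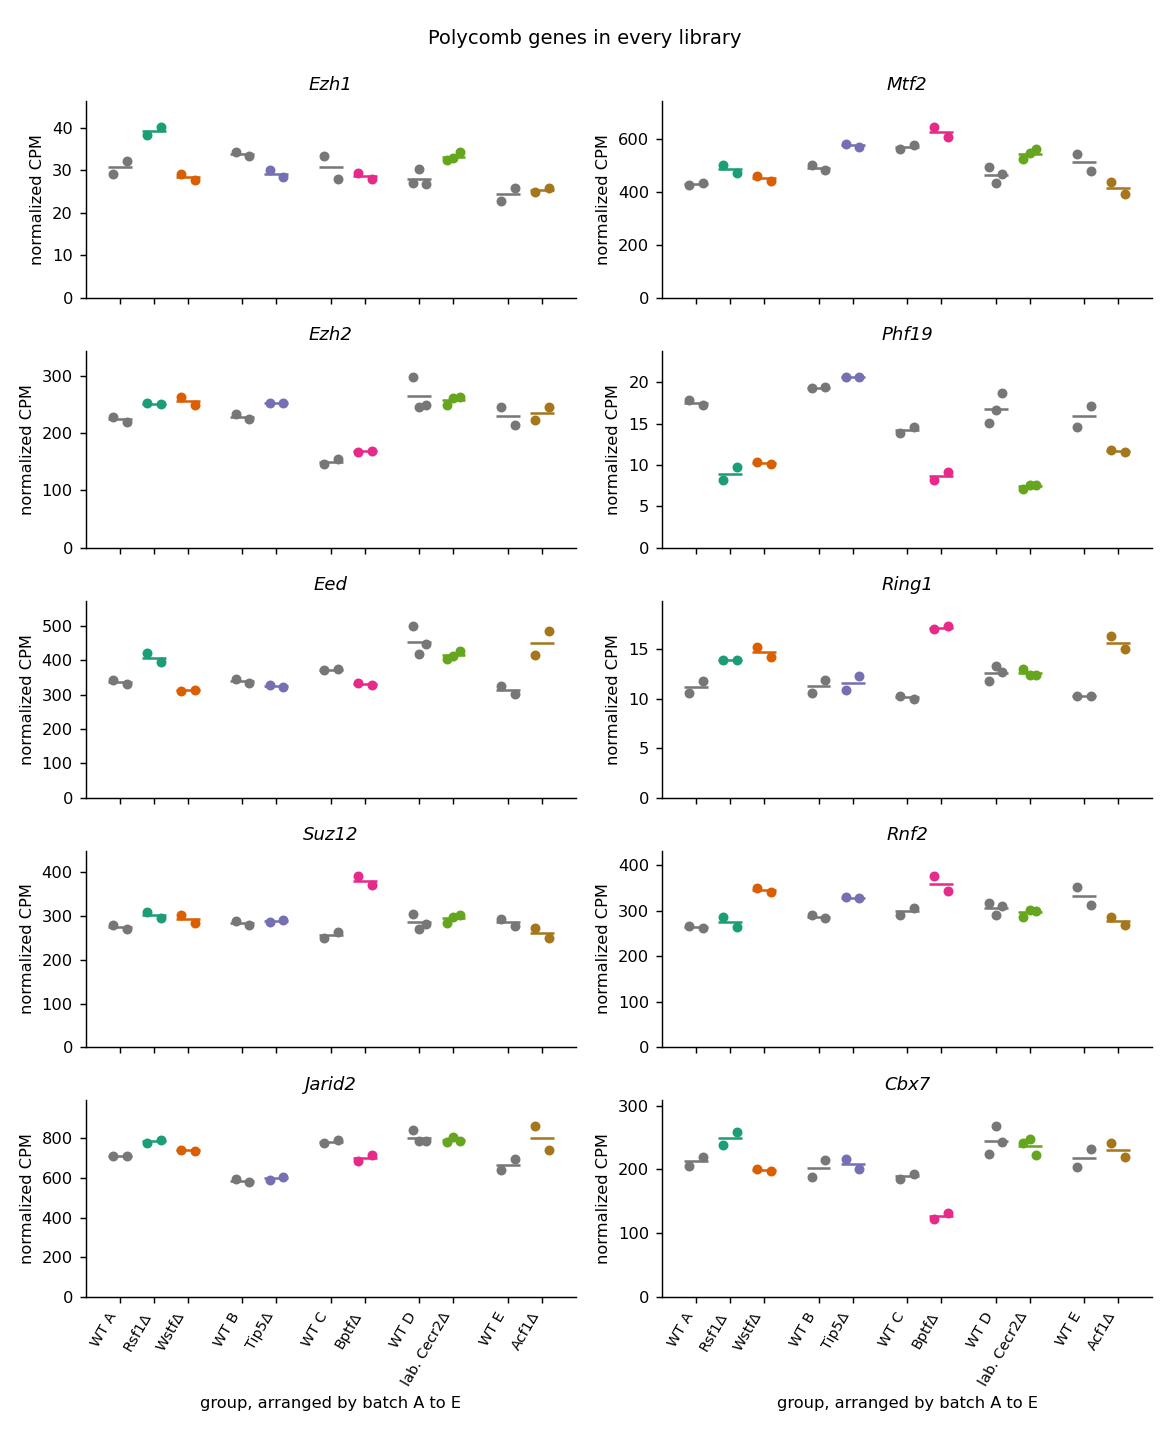
Normalized CPM of each Polycomb gene in all 24 libraries, arranged by batch; WT is grey, lines are colored, points are libraries and bars are group means, with each y axis starting at 0. Phf19 of Rsf1Δ, WstfΔ, BptfΔ, labelled Cecr2Δ and Acf1Δ lies below every WT library, and Cbx7 of BptfΔ does too.

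Among the other accessory subunits, Mtf2 moved in opposite directions in 2 lines. Mtf2, which recruits PRC2 to CpG islands, stood at 494, 434 and 468 normalized CPM in WT of batch D and at 524, 548 and 562 in the libraries labelled Cecr2Δ (0.23 ± 0.05, adjusted p = 0.00236). In batch E it was 544 and 480 in WT and 439 and 393 in Acf1Δ (−0.30 ± 0.07, adjusted p = 0.000693). The groups did not overlap in either case, but WT alone ranged from 428 to 580 over all batches. Mtf2 also stood above its WT in Tip5Δ, at 582 and 571 against 501 and 483, with an adjusted p of 0.0189 (0.23 ± 0.07). DESeq2 (adjusted p = 0.00614) and a fit on batch B alone (1.76e-08) called that difference.

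The calls on Mtf2 rested on single libraries. In the libraries labelled Cecr2Δ the call was lost without WT replicate 2 (0.18, adjusted p = 0.0180), replicate 2 (0.22, 0.0107) or replicate 3 of the line (0.21, 0.0178). In Acf1Δ it was lost without WT replicate 1 (−0.21, 0.0376) or Acf1Δ replicate 2 (−0.22, 0.0239). A fit on the own batch alone ended both (0.0115 and 0.0643).

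Jarid2, a DNA-binding subunit without demethylase activity, rose in Acf1Δ. It was 641 and 695 normalized CPM in WT and 862 and 743 in Acf1Δ (0.27 ± 0.06, adjusted p = 0.000753). Both Acf1Δ libraries were higher than both WT libraries, though they also differed from each other. Their mean (803) lay inside the range of the 11 WT libraries of all batches (578 to 840). The call was lost without WT replicate 1 (0.21, adjusted p = 0.0264), without Acf1Δ replicate 1 (0.16, 0.0363) and in a fit on batch E alone (0.29, 0.0558). In the other lines its log2 fold change lay between −0.16 and 0.14, with no call. A fit on the own batch alone called a fall of Jarid2 in BptfΔ (−0.18, adjusted p = 6.93e-05), where 28% of all genes fell. It also called a rise in Rsf1Δ (0.15, 0.00645), where 12.9% of all genes rose.

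Of the PRC2 core, Suz12 and Eed gave the largest changes. Suz12, which holds the complex together, was 249 and 264 normalized CPM in WT of batch C and 390 and 370 in BptfΔ (0.57 ± 0.06, adjusted p = 2.18e-08). Both BptfΔ libraries exceeded all 11 WT libraries, the highest of which held 305. In the other lines Suz12 changed by −0.13 to 0.14 and passed in none. Without any 1 library the change in BptfΔ lay between 0.53 and 0.61.

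Eed rose in 2 lines. It was 325 and 302 normalized CPM in WT of batch E and 416 and 485 in Acf1Δ (0.52 ± 0.07, adjusted p = 1.31e-06). In batch A it was 342 and 332 in WT, and 420 and 396 in Rsf1Δ (0.28 ± 0.07, adjusted p = 0.00334). Both lines stayed inside the range of the 11 WT libraries (302 to 499), as WT of batch D held 499, 419 and 447. The call in Rsf1Δ was lost without WT replicate 1 (0.30, adjusted p = 0.0152), WT replicate 2 (0.25, 0.0433) or Rsf1Δ replicate 1 (0.23, 0.0528). With the replicate number as a block, its adjusted p was 0.0117. In BptfΔ, Eed was lower without passing (−0.18, adjusted p = 0.0381). A fit on batch C alone called that fall (−0.20, 2.37e-05), where 28% of all genes fell.

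Ezh2, the main catalytic gene of PRC2 in mESCs, passed the test in no line. It had log2 fold changes from −0.04 in the libraries labelled Cecr2Δ to 0.20 in WstfΔ (SE 0.06 to 0.08). In WstfΔ it was 264 and 249 normalized CPM against 228 and 220 in WT, with no overlap and an adjusted p of 0.0401. A fit on the own batch alone called a rise of Ezh2 in Rsf1Δ (0.17, adjusted p = 0.00546), WstfΔ (0.22, 0.000744), Tip5Δ (0.13, 0.00267) and BptfΔ (0.13, 0.00831), fits in which 12.9%, 22.2%, 11.5% and 27.5% of all genes rose. The call on Ezh2 thus depended on which libraries entered the fit.

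Ezh1, a weaker methyltransferase typical of resting cells, rose in 2 lines from a low level. In batch A it was 29.3 and 32.3 normalized CPM in WT and 38.3 and 40.3 in Rsf1Δ (0.35 ± 0.08, adjusted p = 0.00188), above all 11 WT libraries. In batch D it was 26.96, 30.4 and 26.8 in WT, and 32.4, 33.04 and 34.3 in the libraries labelled Cecr2Δ (0.24 ± 0.07, adjusted p = 0.00727). The latter stayed within the 11 WT libraries (22.9 to 34.3). The Rsf1Δ call was lost without WT replicate 1 (0.28, adjusted p = 0.0501) or Rsf1Δ replicate 2 (0.32, 0.0292). In the libraries labelled Cecr2Δ it was lost without WT replicate 1 (0.21, 0.0371), WT replicate 3 (0.22, 0.0383), or replicate 1 (0.26, 0.0117), 2 (0.25, 0.0200) or 3 (0.22, 0.0383) of the line. DESeq2 (0.0132), library-size scaling (0.0125), a fit on batch D alone (0.0220), the replicate block (0.0111) and the model without batch (0.220) did not call it either.

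In PRC1, Ring1, the rarer of the paired E3 ligases, rose in 3 lines. It was 10.3 and 9.92 normalized CPM in WT of batch C and 17.0 and 17.3 in BptfΔ (0.76 ± 0.10, adjusted p = 8.05e-07). In batch E it was 10.2 in both WT libraries, and 16.3 and 15.0 in Acf1Δ (0.61 ± 0.10, adjusted p = 1.26e-05). The lines exceeded the highest WT library of any batch, which held 13.3. In batch A it was 10.6 and 11.8 in WT and 15.2 and 14.2 in WstfΔ (0.40 ± 0.10, adjusted p = 0.00288), and 13.9 and 13.8 in Rsf1Δ (0.31 ± 0.10, adjusted p = 0.0166). The WstfΔ call was lost without WT replicate 1 (0.32, 0.0489) or WstfΔ replicate 1 (0.35, 0.0435). Ring1 was 11.7, 13.3 and 12.7 in WT of batch D and 12.98, 12.4 and 12.4 in the libraries labelled Cecr2Δ (0.00 ± 0.08), which overlap. It rested on 170 to 444 reads a library.

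Rnf2, the dominant E3 ligase of mESCs, moved both ways. It was 267 and 261 normalized CPM in WT of batch A and 351 and 342 in WstfΔ (0.39 ± 0.06, adjusted p = 1.40e-05). In batch C it was 292 and 307 in WT, and 376 and 342 in BptfΔ (0.26 ± 0.06, adjusted p = 0.00107). In Acf1Δ it was lower, at 287 and 269 against 351 and 313 in WT (−0.26 ± 0.06, adjusted p = 0.00179). The groups did not overlap, but WstfΔ and Acf1Δ stayed within the 11 WT libraries (261 to 351). In BptfΔ the call was lost without WT replicate 1 (0.23, 0.0230) or BptfΔ replicate 1 (0.19, 0.0437). In Acf1Δ it was lost without WT replicate 1 (−0.17, 0.0709), without Acf1Δ replicate 2 (−0.21, 0.0297) and in a fit on batch E alone (−0.23, 0.124).

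Cbx7, the chromobox subunit that ties PRC1 to H3K27me3, fell in BptfΔ. It was 185 and 193 normalized CPM in WT of batch C and 123 and 131 in BptfΔ (−0.57 ± 0.08, adjusted p = 2.20e-06), below every WT library. In Rsf1Δ it was 239 and 259 against 206 and 220 in WT (0.23 ± 0.08, adjusted p = 0.0341). A fit on batch A alone (adjusted p = 0.00134) and one without the filter on low counts (0.00368) called this rise. In the other lines its log2 fold change lay between −0.10 and 0.08.

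Since Rsf1Δ and WstfΔ were set against the same WT of batch A, the lines were also compared directly. Of the 10 members, 4 differed (33.3% of all genes did). WstfΔ was lower than Rsf1Δ in Ezh1 (−0.46 ± 0.09, adjusted p = 0.00014), Eed (−0.38 ± 0.07, 7.60e-05) and Cbx7 (−0.33 ± 0.08, 0.00208), and higher in Rnf2 (0.33 ± 0.06, 0.000129). Phf19 differed by 0.20 ± 0.13 (adjusted p = 0.213), which did not pass. The change in BptfΔ was also set against that in WstfΔ, each relative to its own WT, and 2 members differed (21.2% of all genes). Suz12 rose more in BptfΔ (0.47 ± 0.09, adjusted p = 0.00016) and Cbx7 fell more (−0.48 ± 0.12, 0.00274). For Ring1 the difference was 0.36 ± 0.15 (adjusted p = 0.0617). Leaving out WT replicate 1 or WstfΔ replicate 1 of batch A, or WT replicate 2 or BptfΔ replicate 1 of batch C, gave 1 difference in place of 2, and leaving out Rsf1Δ replicate 2 or either WstfΔ library gave 3 in place of 4 between WstfΔ and Rsf1Δ.

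Over the 13 deletion libraries, each relative to the mean of its own WT, the genes most like Phf19 by Pearson's correlation included Arhgdib (0.975) and Ecpas (0.950). Arhgdib had log2 fold changes of −1.12 in Rsf1Δ, −0.90 in WstfΔ, 0.17 in Tip5Δ, −0.71 in BptfΔ, −0.46 in Acf1Δ and −1.31 in the libraries labelled Cecr2Δ. Those of Ecpas ran from −0.55 in the libraries labelled Cecr2Δ to 0.35 in Tip5Δ. The genes most like Cbx7 were Mid1 (0.979), Nefh (0.968) and Trim44 (0.967), and those most like Ring1 were Nubp1 (0.971), Commd4 (0.968) and Hps4 (0.967). These are descriptions over libraries that share clones and WT controls. Among the members themselves, the highest correlation was between Eed and Jarid2 (0.780) and the lowest between Suz12 and Cbx7 (−0.798).

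A wider list held 42 other Polycomb genes, all of which were tested. In Rsf1Δ 6 rose and 4 fell, where 7.45% of all genes rose and 13.1% fell. WstfΔ had 10 higher and 9 lower (all genes: 16.4% and 18.3%), Tip5Δ 2 and 3 (2.84% and 6.23%), BptfΔ 9 and 10 (21.4% and 20.2%), the libraries labelled Cecr2Δ 3 and 1 (9.52% and 8.83%), and Acf1Δ 7 and 10 (15.1% and 16.7%). The highest list counts, in WstfΔ, BptfΔ and Acf1Δ, stood in the lines where most genes changed. The medians lay between −0.05 (Acf1Δ) and 0.12 (BptfΔ). In Tip5Δ, leaving out any 1 of the 4 libraries of batch B gave 1 call in place of 5. By class, the 6 PCGF genes, whose products pair with the E3 ligase and define PRC1 subtypes, had 1 higher and 2 lower in Rsf1Δ, WstfΔ and Acf1Δ, 2 of each in BptfΔ, and 1 lower in Tip5Δ and the libraries labelled Cecr2Δ. The 11 genes of variant PRC1, the form without chromobox proteins, had 2 higher and 1 lower in Rsf1Δ, 3 and 2 in WstfΔ, 1 and 4 in BptfΔ, 3 and 5 in Acf1Δ, 1 higher in Tip5Δ and 2 higher in the libraries labelled Cecr2Δ. The 8 genes of the PR-DUB deubiquitinase had 2 higher and 1 lower in WstfΔ, 3 and 1 in BptfΔ, 1 and 2 in Acf1Δ, and none that passed in the other lines.

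Pcgf5 and Scml2 changed most among them. Pcgf5, which activates variant PRC1, had 17.7 ± 1.64 (SD, n = 2) normalized CPM in WT of batch C and 4.06 ± 0.15 in BptfΔ (−2.13 ± 0.16, adjusted p = 1.83e-11). It stood at 31.4 ± 0.76 in WT of batch A, 14.5 ± 0.75 in Rsf1Δ (−1.11 ± 0.12) and 13.3 ± 0.48 in WstfΔ (−1.23 ± 0.13). It also fell in Tip5Δ (−0.47) and the libraries labelled Cecr2Δ (−0.49), so in 5 of 6 lines. In Acf1Δ it stood at 0.21 without passing. In mean level, Pcgf5 of BptfΔ lay below all 11 WT libraries, while that of Rsf1Δ and WstfΔ lay inside their range. Scml2, a PRC1 partner known from the germline, was at 4.61 ± 0.16 in WT of batch C and 0.62 ± 0.14 in BptfΔ (−2.89 ± 0.31, adjusted p = 1.51e-08). In Tip5Δ it was 2.94 ± 0.05 against 5.96 ± 0.09 (−1.02 ± 0.20, adjusted p = 0.000474). Auts2, a subunit of the Pcgf5 complex, fell in BptfΔ (8.29 ± 1.48 to 3.70 ± 0.24, −1.16 ± 0.18) and in Acf1Δ (−0.77 ± 0.12).

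Smaller changes recurred in genes singled out after their values were seen. Epop, a PRC2 partner that binds elongin, rose in Rsf1Δ (0.67), WstfΔ (0.60), BptfΔ (0.48) and Acf1Δ (0.73). Pcgf2, a PCGF of canonical PRC1, rose in Rsf1Δ (0.46), WstfΔ (0.40) and BptfΔ (0.60) and fell in Acf1Δ (−0.23). Bcor, a corepressor in a variant PRC1, fell in WstfΔ (−0.79), BptfΔ (−0.72) and Acf1Δ (−0.62) and rose in the libraries labelled Cecr2Δ (0.42).

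Developmental regulators known as Polycomb targets in mESCs were read as a list of 30, of which 22 had enough reads. In Rsf1Δ 7 fell and none rose (edgeR quasi-likelihood test), where 13.1% of all genes fell and 7.45% rose. In WstfΔ 10 fell and 3 rose (all genes: 18.3% and 16.4%), in Tip5Δ 5 and 3 (6.23% and 2.84%), in BptfΔ 12 and 1 (20.2% and 21.4%), in the libraries labelled Cecr2Δ 6 and 2 (8.83% and 9.52%), and in Acf1Δ 7 and 3 (16.7% and 15.1%). The median log2 fold change was −0.89, −1.52, −0.51, −1.89, −0.31 and −0.47 in the order given, against −0.03 to 0.01 over all genes. Of the 30, 4 genes (Cdx2, Gata4, Gata6 and Sox17) are also among the extraembryonic markers above. All 4 endoderm genes of the list (Gata4, Gata6, Sox17 and Foxa2) fell in the 5 lines other than Acf1Δ, in which Gata4 and Sox17 rose. Without WT replicate 2 or Tip5Δ replicate 2 of batch B, 5 target genes passed in Tip5Δ in place of 8.

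**Figure D4:**
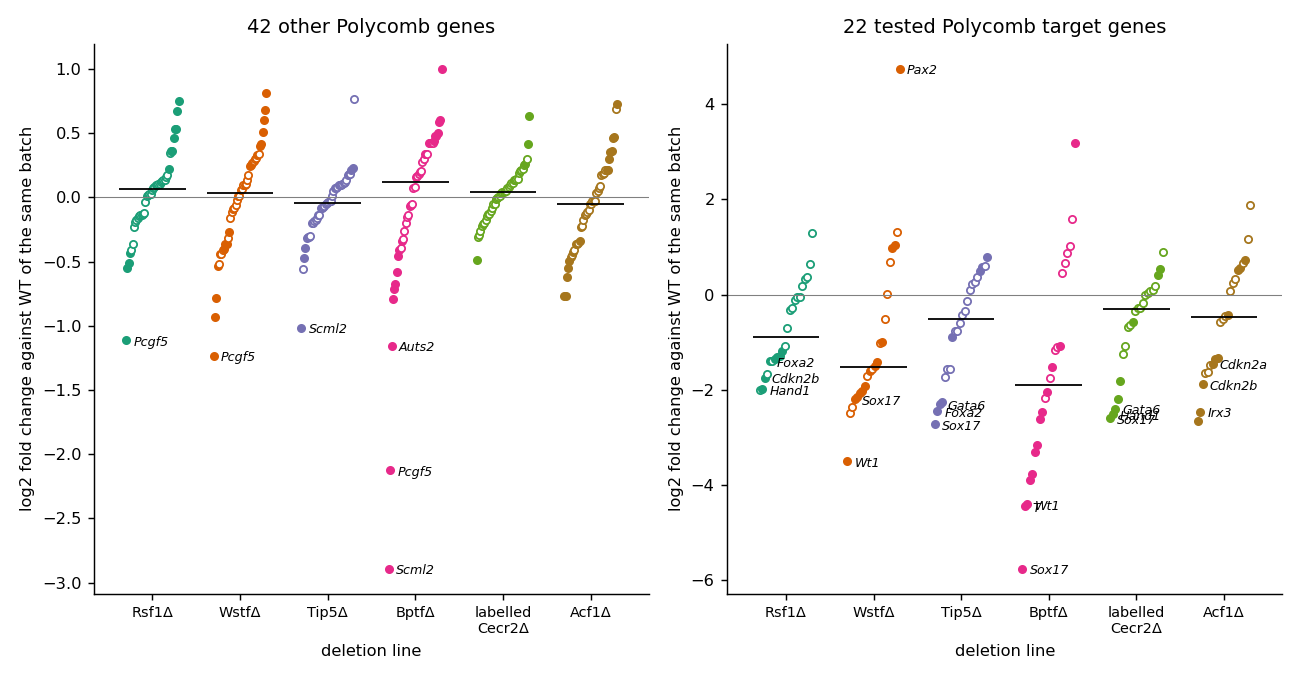
Log2 fold change against WT of the same batch for 42 other Polycomb genes (left) and 22 Polycomb target genes (right) in each line, with filled points past an adjusted p of 0.01 and black lines at the list medians. In the left panel Pcgf5, Scml2 and Auts2 reach below −1, and in the right panel the target genes spread from −5.75 to 4.74.

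Of the target genes outside endoderm, cell cycle inhibitors moved in one direction. Cdkn2b, which encodes p15, fell in 5 lines, for example from 4.08 ± 0.22 to 1.11 ± 0.17 normalized CPM in Acf1Δ (−1.88 ± 0.22, adjusted p = 2.06e-07). Cdkn2a, at the adjacent locus, fell from 7.57 ± 0.70 to 2.78 ± 0.03 in Acf1Δ (−1.45 ± 0.19) and fell in 4 lines in all. Hand1, a trophoblast and heart regulator, fell in Rsf1Δ (−1.99 ± 0.32), in WstfΔ (−2.07 ± 0.37) and in the libraries labelled Cecr2Δ (−2.51 ± 0.24). Irx3, a neural regulator, fell from 0.92 ± 0.21 to 0.16 ± 0.08 in Acf1Δ (−2.46 ± 0.50). In mean level, Irx3 in Acf1Δ and Cdkn2b in Rsf1Δ lay below all 11 WT libraries. Cdkn2b and Cdkn2a in Acf1Δ, and Hand1 in Rsf1Δ and the libraries labelled Cecr2Δ, lay inside their range.

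In BptfΔ and WstfΔ the widest changes were seen. Wt1, a mesoderm regulator, fell from 8.27 ± 0.31 to 0.73 ± 0.20 normalized CPM in WstfΔ (−3.50 ± 0.22, adjusted p = 7.10e-13) and from 5.06 ± 0.18 to 0.24 ± 0.01 in BptfΔ (−4.40 ± 0.30), and rose in Tip5Δ (0.58) and Acf1Δ (0.57). Sox17 fell from 11.4 ± 1.48 to 0.21 ± 0.13 in BptfΔ (−5.75 ± 0.31). T, the mesoderm factor Brachyury, was at 1.38 ± 0.05 in WT of batch C, and each BptfΔ library held 1 read (adjusted p = 3.08e-06). Pax2, a kidney and neural regulator, was at 3.45 ± 0.64 in WstfΔ, while no WT library of batch A had more than 3 reads (adjusted p = 1.40e-07), and it also rose in BptfΔ (adjusted p = 0.00277). At such low counts the size of a fold change is not well defined.

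The exons of 6 members overlap those of another gene on the opposite strand. The labels name a stranded library kit and the study's methods a different one, and whether reads were counted by strand is not stated in the sources used here. The shared exon bases were 174 for Ezh2 (Gm26625), 261 for Eed (E230029C05Rik), 178 for Suz12 (Gm26563), 395 for Mtf2 (Tmed5), 158 for Rnf2 (Trmt1l) and 100 for Cbx7 (Apobec3), of 3828 to 6678 exon bases in each member. Reads from these stretches may belong to either gene. Ezh1, Jarid2, Phf19 and Ring1 had no such overlap. Apart from these stretches of Eed and Mtf2, no transcript of another gene matched a member at 95% identity or more over 200 bases in GENCODE.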

How the data were processed

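RNA-seq counts per gene in 24 libraries were deposited as raw counts. Per the labels and the study's methods, poly(A)-selected RNA was sequenced and demultiplexed with bcl2fastq, and reads were aligned to mm10 with HISAT2 (through QuasR) and counted over UCSC known genes. The labels name a stranded mRNA kit and the methods another kit. The options for strand and for reads with several matches are not given in the sources used here. Entrez IDs were joined to symbols through RefSeq (24570 of 24594 IDs matched).

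Counts were fitted in R 4.3.3 with edgeR 4.0.16 (quasi-likelihood test, batch and genotype as terms, filterByExpr), the model the study's methods describe for an older edgeR. TMM scaling, filtering by genotype and a joint fit of all 24 libraries were set here, and 15682 genes were tested. A change is an adjusted p (Benjamini-Hochberg over all genes tested) under 0.01, and the stricter rule adds a log2 fold change over 1 in size. Each line was compared with WT of its batch through the batch term. Normalized CPM are counts scaled to the TMM-adjusted library size, and levels per kilobase divide them by the exon width in the deposited table. SDs are over libraries and SEs are of the fitted change. Replicate libraries differed by more than sampling noise, and none was merged. Library totals of 13417755 to 36721585 put 3 counts, the floor used here, at 0.0837 to 0.220 CPM, and this covers counting error only.

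Members, lists, markers and rules were chosen with earlier results of these data known. Named genes were all 10 members, the 6 targeted genes, and per line and list the 3 largest changes past both thresholds with a mean of at least 10 reads. Epop, Pcgf2 and Bcor fall outside this rule and were named after their values were seen. The genes most like a member were given for the 3 members with the widest range of change, and 1 of these genes is not reported here. Alternatives were DESeq2 1.42.0, the newer quasi-likelihood form, library-size scaling, no filter on low counts, the own batch alone, no batch term, a replicate block, genes 8-fold higher in batch C left out, and each library left out in turn.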

Additional observations from a re-analysis of the deposited data

How the results depend on the processing

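Over the 60 changes of members, the newer quasi-likelihood form and the fit without 116 genes of batch C kept every direction and call, the fit without the filter on low counts ended no call and added 2, and DESeq2 added 1 and ended 1. The model without batch, which sets each line against WT of all batches, moved most. In it the number of members changed was 1 in Rsf1Δ, WstfΔ, Acf1Δ and the libraries labelled Cecr2Δ, and that of other Polycomb genes was 0 in Rsf1Δ and Tip5Δ, 3 in WstfΔ and 1 in Acf1Δ. Polycomb target genes were then 1 in Rsf1Δ and Tip5Δ, 4 in WstfΔ, 0 in Acf1Δ and 5 in the libraries labelled Cecr2Δ, and no member differed between WstfΔ and Rsf1Δ (0). Calls over all genes fell too, to 1.61% in Rsf1Δ, 7.65% in WstfΔ, 1.76% in Tip5Δ, 2.22% in Acf1Δ and 7.60% in the libraries labelled Cecr2Δ. Without batch the sign turned for Mtf2 in Rsf1Δ (−0.0093) and WstfΔ (−0.12), Rnf2 in Rsf1Δ (−0.12), Jarid2 in Tip5Δ (−0.27), Cbx7 in Tip5Δ (−0.048), Ezh2 in BptfΔ (−0.41), Ezh1 in Acf1Δ (−0.21), and in the libraries labelled Cecr2Δ for Ezh2 (0.21), Eed (0.16), Jarid2 (0.14) and Cbx7 (0.13), none of them called in the reported fit. A fit on the own batch alone gave 7 changed members in Rsf1Δ, 4 in Tip5Δ, 8 in BptfΔ, 2 in Acf1Δ and 1 in the libraries labelled Cecr2Δ, and 14 other Polycomb genes in Tip5Δ and 8 in Acf1Δ; over all genes it called 29.5%, 24.6%, 55.5%, 16.9% and 13.6% in these 5 lines. Without the filter on low counts, 1 member passed in Tip5Δ and 10 other Polycomb genes in the libraries labelled Cecr2Δ, and DESeq2 gave 1 member in Tip5Δ. With library size only, the call on Ezh1 in the libraries labelled Cecr2Δ was lost (0.24, adjusted p = 0.0125), 3 other Polycomb genes passed in Tip5Δ, and Suz12 (−0.015) and Jarid2 (−0.015) in Tip5Δ turned sign. Ring1 in the libraries labelled Cecr2Δ, at 0.0019 in the reported fit, turned to −0.0055 with library size only, −0.0047 on its own batch and −0.0088 with DESeq2. The cause of these differences was not tested.

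Samples that share a replicate number correlated at −0.07 to 0.05, so the numbers do not pair them. With the replicate block, 3 other Polycomb genes passed in Tip5Δ in place of 5, and of the 20 calls on members those on Eed in Rsf1Δ and Ezh1 in the libraries labelled Cecr2Δ were lost; no other call on a member changed.

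Leaving out 1 library at a time gave 1 to 2 changed members in Rsf1Δ and the libraries labelled Cecr2Δ, 3 to 5 in Acf1Δ, 1 of the other Polycomb genes in Tip5Δ (lowest and highest), 5 to 6 target genes in Tip5Δ, and 1 to 2 members differing between the changes of BptfΔ and WstfΔ. Signs of changes that were not called turned for Ring1 (−0.042 to 0.13) and Cbx7 (−0.045 to 0.15) in Tip5Δ, Ezh1 in BptfΔ (−0.22 to 0.031), Ezh1 (−0.022 to 0.15), Ezh2 (−0.067 to 0.13) and Cbx7 (−0.011 to 0.17) in Acf1Δ, and in the libraries labelled Cecr2Δ Ezh2 (−0.086 to 0.059), Jarid2 (−0.038 to 0.0089), Ring1 (−0.050 to 0.045) and Cbx7 (−0.11 to 0.026). The log2 ratio of Ezh2 to Ezh1 in WT was 2.45 in batch C alone. That of Rnf2 to Ring1 was 4.74 without division by width and 4.67 in batch E alone. Phf19 and Ring1 rest on fewer reads than the other members, and each line on 2 or 3 libraries of 1 clone.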
